A study of Rattus norvegicus with 12 samples.

Results

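Dentate granule neuron markers were followed in hippocampal RNA of blast-exposed rats with and without dietary boldine. The 7 markers, Prox1, Dsp, C1ql2, C1ql3, Lct, Stxbp6 and Tdo2, were taken by gene symbol from a table of read counts of 17494 genes, in which 6 of them were matched, and Dsp, which encodes the desmosomal protein desmoplakin, was not analysed here. All 12 animals were male Long Evans rats exposed to blast at 10 weeks of age, with 3 exposures, 1 per day. The 6 blast-boldine rats ate chow with 500 mg/kg boldine, an alkaloid of the boldo tree that blocks connexin hemichannels, from week 2 after blast until sacrifice at 29 weeks. The 6 blast-control rats ate the same chow without boldine, so that both groups carried the blast injury, and RNA of unexposed rats was not analysed here. The methods name the boldine chow as the diet to which animals were habituated for 7 days before the procedures. They also state that controls continued on chow without boldine. The sample labels give the tissue as brain and the methods of the study give it as hippocampus, with 1 library of ribosome-depleted total RNA per rat.

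Granule neurons are the principal excitatory cells of the dentate gyrus, the entry station of the hippocampus. They receive entorhinal input through the perforant path, send their axons, the mossy fibers, to CA3 pyramidal cells, and are added throughout adult life from progenitors of the subgranular zone. Their markers belong to separate functions. Prox1 is a homeobox transcription factor that sets and keeps granule identity. C1ql2 and C1ql3 are secreted proteins with a C1q domain that act at synapses, among them mossy fiber synapses. Stxbp6, also called amisyn, binds the membrane fusion machinery of secretory vesicles. Lct (lactase) and Tdo2 (tryptophan dioxygenase) are enzymes best known from intestine and liver, and their transcripts serve as markers of granule neurons in rodent atlases.

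The C1q-domain genes C1ql2 and C1ql3 are paralogs and had the highest Pearson correlation among the markers over 11 rats, though not the highest rank correlation, and their promoters are shown for this reason. The sequences run 5′ to 3′ from 250 bases before to 50 bases after the gene start, come from RefSeq on build GRCr8, and lie at chr13:34023652-34023951 (plus strand) for C1ql2 and chr17:81038195-81038494 (minus strand) for C1ql3. Capitals mark the E-box letters CANNTG, searched on both strands, the motif that basic helix-loop-helix factors such as the neuronal factor Neurod1 recognise.
C1ql2: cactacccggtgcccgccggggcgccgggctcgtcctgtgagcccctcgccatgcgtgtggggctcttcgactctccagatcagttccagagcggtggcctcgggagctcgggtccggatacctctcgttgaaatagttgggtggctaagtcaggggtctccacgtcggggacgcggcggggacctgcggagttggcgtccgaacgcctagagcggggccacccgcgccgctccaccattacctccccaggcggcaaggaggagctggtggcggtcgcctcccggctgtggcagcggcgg
C1ql3: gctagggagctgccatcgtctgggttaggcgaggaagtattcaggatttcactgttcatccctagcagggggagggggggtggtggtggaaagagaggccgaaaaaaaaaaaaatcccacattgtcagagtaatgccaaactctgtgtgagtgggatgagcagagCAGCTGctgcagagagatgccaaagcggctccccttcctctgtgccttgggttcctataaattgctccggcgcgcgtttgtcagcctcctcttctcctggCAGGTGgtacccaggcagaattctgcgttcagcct
The C1ql3 window held 2 E-boxes, the first starting at base 166, and the C1ql2 window held 0, while 71.6% of 27457 promoter windows of this length held at least 1. C1ql3 also held the letters TATAAA at base 221, which 14.3% of the windows contained and C1ql2 did not. The windows differed in base composition, with 70.3% G or C in C1ql2 and 54.7% in C1ql3, against a median of 52.3% over all windows. Such matches describe letters in a window and do not show binding.

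Sequencing depth was even enough in 11 libraries, with 10148474 to 40850106 counts on genes, whereas the library of blast-control rat 6 held 74008. In that library 1 count was worth 15.8 CPM (counts scaled to a common library size after TMM normalization) and 3 counts, the smallest number read as detected, were worth 47.5 CPM, against 0.0658 to 0.307 CPM in the other rats. The main edgeR comparison of each tested marker is therefore given with and without rat 6. Correlations, sheet differences and gene lists are given without it unless stated. Library names carry numbers that fall into a pair of runs of 6, called sequencing sheets here. In the pairing used, sheet 1 holds rats 4, 5, 6, 12, 17 and 19 and sheet 2 holds rats 1, 7, 9, 20, 32 and 35, with 3 blast-boldine rats on each. The labels do not name sheets, and this assignment was picked among the 4 in which each number occurs 1 time per sheet and rats are numbered upward along a sheet, an ordering that is an assumption, because it took up more of the main axis of variation (the first principal component) than the others did. Its share was 95.1%, against 57.3%, 14.9% and 2.83% for the other assignments and 1.54% for treatment.

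The markers fell into an abundant set and a barely counted set. Prox1, C1ql2, C1ql3 and Stxbp6 passed the filter on low counts and entered the main edgeR tests, and Lct and Tdo2 did not. Per kilobase of exon, C1ql3 was the highest at 121.8 ± 24.5 CPM (SD, n = 11 rats without rat 6), above 96.5% of the 15690 genes with a count. It exceeded each of the other 3 abundant markers in 11 of 11 rats. C1ql2 followed at 66.1 ± 21.5 CPM per kilobase and Stxbp6 at 59.1 ± 10.4, and the order of these neighbours was the same in 7 of 11 rats only. Their order differed by sheet. On sheet 2 (n = 6) C1ql2 had 78.0 ± 14.1 CPM per kilobase against 54.6 ± 10.1 for Stxbp6. On sheet 1 without rat 6 (n = 5) C1ql2 had 51.9 ± 21.1 against 64.4 ± 8.81. No single order of the pair therefore held over the 11 rats. Prox1 was the lowest of the abundant set at 34.0 ± 12.5 CPM per kilobase. Its level lay below that of Stxbp6 in 11 of 11 rats and below that of C1ql2 in 9 of 11. C1ql2 and C1ql3 are paralogs, and reads that align to both could make their levels less certain, which was not tested.

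Prox1 gave no difference between the groups beyond the spread between rats, and the ranges of the groups overlapped. The gene lies on chromosome 13 (101669184 to 101719804, minus strand, mRatBN7.2) and has 7 exons in the annotation. In blast-controls it was measured at 105.3 CPM in rat 1, 197.8 in rat 4, 179.8 in rat 5, 89.7 in rat 7 and 112 in rat 9. Rat 6 had 15 counts, or 237.6 CPM. The blast-boldine rats 12, 17 and 19 had 214.9, 204.7 and 164.8 CPM, and rats 20, 32 and 35 had 91.0, 90.5 and 95.3. Each group thus held rats with high and rats with low values, and the high rats in both groups were those of sheet 1. Without rat 6 the means were 143.5 ± 58.6 CPM in blast-boldine rats (SD, n = 6) and 136.9 ± 48.5 in blast-controls (n = 5). The log2 fold change was -0.02 ± 0.30 (SE) over 12 rats and 0.07 ± 0.31 over 11, with Benjamini-Hochberg adjusted p of 0.99996 and 0.9998, respectively (edgeR, quasi-likelihood). The 95% interval over 11 rats ran from 0.66-fold to 1.68-fold. With the sheet as a covariate the interval narrowed to 0.84-fold to 1.08-fold, around a log2 fold change of -0.07 ± 0.084 (adjusted p = 0.938, edgeR).

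C1ql2 also gave no difference beyond the spread between rats over the whole cohort. It lies on chromosome 13 (31471150 to 31472685, plus strand, 2 exons). Blast-controls had 80.2 CPM in rat 1, 79.6 in rat 4, 28.6 in rat 5, 51.2 in rat 7 and 67.4 in rat 9, and rat 6 had 3 counts, or 47.5 CPM. Blast-boldine rats had 59.3, 40.1 and 39.7 CPM in rats 12, 17 and 19 and 85.6, 75.0 and 86.6 in rats 20, 32 and 35. The lowest value of the cohort was that of blast-control rat 5 and the highest that of blast-boldine rat 35, and the groups overlapped over most of their range. In edgeR its log2 fold change was 0.09 ± 0.28 over 12 rats (adjusted p = 0.99996) and 0.07 ± 0.29 over 11 (adjusted p = 0.9998). Its 95% interval over 11 rats ran from 0.67-fold to 1.63-fold. Within sheet 2, where C1ql2 had 82.4 ± 6.42 CPM in 3 blast-boldine rats and 66.3 ± 14.5 in 3 blast-controls, edgeR gave a log2 fold change of 0.31 ± 0.15 with an unadjusted p of 0.0669 and an adjusted p of 0.9997. This was the smallest p of any marker in any fit. Within sheet 1 the sign was the other way, -0.22 ± 0.41 in 3 against 2 rats, and the difference between the sheets in the treatment effect, 0.51 ± 0.44, had an unadjusted p of 0.271 in edgeR's interaction term.

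C1ql3 gave the steadiest levels of the synaptic pair, apart from the shallow library. It lies on chromosome 17 (76121832 to 76128327, minus strand, 2 exons). Blast-controls had 95.9 CPM in rat 1, 115.4 in rat 4, 64.1 in rat 5, 86.3 in rat 7 and 119.1 in rat 9. Rat 6 had 1 count, worth 15.8 CPM and under the 3 counts read as detected. Blast-boldine rats had 92.6, 87.3 and 64.5 CPM in rats 12, 17 and 19 and 115.5, 85.9 and 102.1 in rats 20, 32 and 35, all within the range of the 5 deeper blast-controls. The blast-control mean was 82.8 ± 38.5 CPM with rat 6 and 96.2 ± 22.5 without it, beside 91.3 ± 17.1 in blast-boldine rats, so that this count decided which group had the higher mean. The edgeR log2 fold change was 0.0043 ± 0.23 over 12 rats (adjusted p = 0.99996) and -0.08 ± 0.18 over 11 (adjusted p = 0.9998). The 95% interval over 11 rats ran from 0.73-fold to 1.24-fold.

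In the fits over 12 and over 11 rats, Stxbp6 had the highest fold change of the abundant markers, and it too stayed inside the spread between rats. It lies on chromosome 6 (61923591 to 62157387, minus strand, 6 exons). Blast-controls had 83.5 CPM in rat 1, 78.6 in rat 4, 80.2 in rat 5, 48.4 in rat 7 and 76.1 in rat 9, and rat 6 had 8 counts, or 126.7 CPM. Blast-boldine rats had 106.2, 83.8 and 79.1 CPM in rats 12, 17 and 19 and 71.0, 70.2 and 86.1 in rats 20, 32 and 35. Rat 7 was low and rat 12 high, and the remaining 9 deep libraries lay between 70.2 and 86.1 CPM. The log2 fold change was 0.11 ± 0.18 over 12 rats and 0.17 ± 0.16 over 11 (adjusted p = 0.99996 and 0.9998, edgeR), with a 95% interval over 11 rats from 0.89-fold to 1.43-fold. Without the low rat 7 it was -0.0072 over the other 11 rats, and without rats 6 and 7 it was 0.055.

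**Figure D1:**
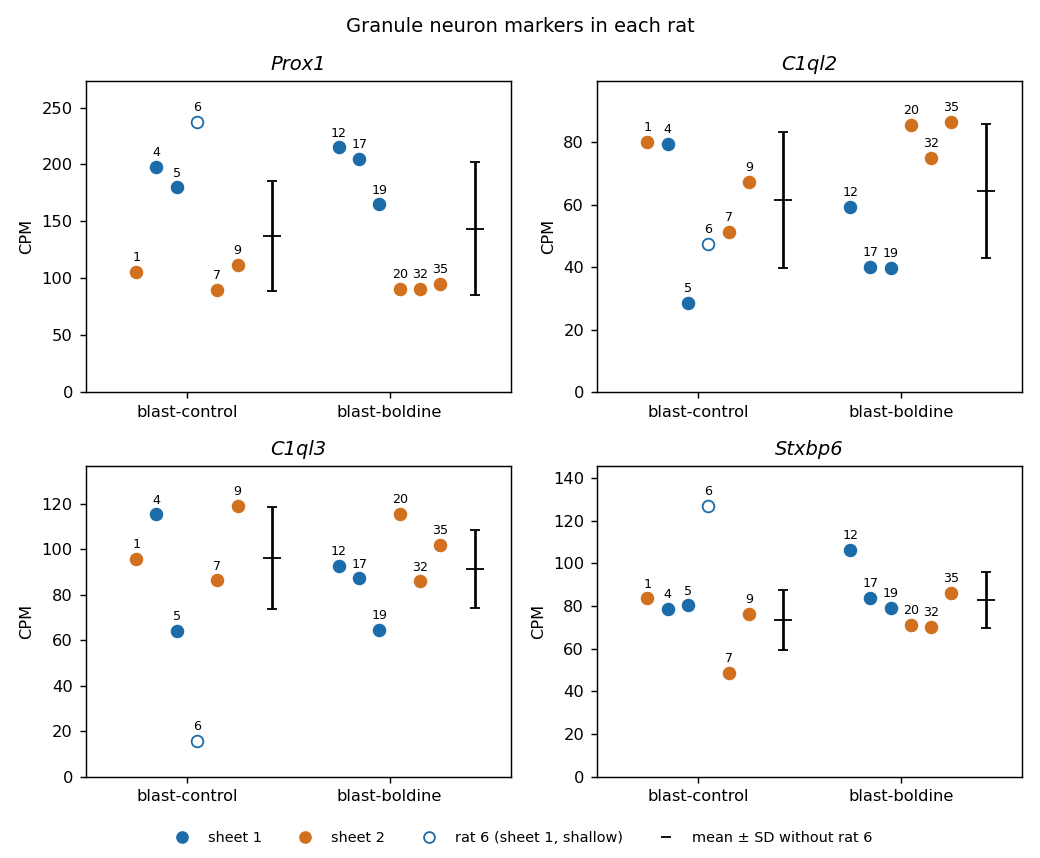
CPM (linear axis from 0) of the 4 abundant granule neuron markers in each rat by group, with the rat number over each point, blue for sheet 1, orange for sheet 2 and an open circle for the shallow library of rat 6; bars give mean ± SD without rat 6 (5 blast-control and 6 blast-boldine rats). Within each group the Prox1 points separate by sheet, between 164.8 and 214.9 CPM on sheet 1 without rat 6 and between 89.7 and 112 on sheet 2, while the group means lie close together.

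Lct and Tdo2 were close to the limit of counting in this tissue. Lct (chromosome 13, 39781929 to 39824456, 17 exons) had 48 counts over all libraries, 25 in blast-controls and 23 in blast-boldine rats. Blast-control rat 1 alone had 19 of them and rat 7 had 5, against 0, 1, 0 and 0 in rats 4, 5, 6 and 9. Blast-boldine rats 12, 17, 19, 20, 32 and 35 had 3, 2, 7, 5, 5 and 1. Of the 11 deep libraries, 6 reached 3 counts and 2 held none, which allows up to 0.296 CPM in rat 4 and 0.25 CPM in rat 9. Tdo2 (chromosome 2, 167269581 to 167287511, 12 exons) had 10 counts in all, 6 in blast-controls and 4 in blast-boldine rats, and reached 3 counts in rat 1 only. Per kilobase of exon both were near the bottom of the genes with a count, above 8.63% and 7.88% of them, and a group difference was not detectable at this depth for either. DESeq2, which kept both, gave log2 fold changes over 12 rats of -0.011 for Lct (unadjusted p = 0.992) and -1.65 for Tdo2 (unadjusted p = 0.329). Their 95% intervals were wide, from 0.22-fold to 4.45-fold and from 0.032-fold to 3.18-fold. Without rat 6 the DESeq2 values were 0.32 and -0.71.

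No granule marker was called in the fit over all genes. None of the 4 tested markers reached an adjusted p of 0.05 in edgeR, nor did any other gene, 0% of 12325 with rat 6 and 0% of 12529 without. At an unadjusted p of 0.05 the count was 0 of the 4 markers, beside 1.07% of all genes with rat 6, 1.40% without, and 5.35% without rat 6 and with the sheet as a covariate. DESeq2 and limma-voom also gave 0 markers at an unadjusted p of 0.05. The median log2 fold change of the 4 markers was 0.045 over 12 rats and 0.067 over 11, against 0.0046 and -0.00097 for all genes tested. In exact two-sided permutation tests of the mean log2 CPM over 12 rats, with 924 assignments, p was 0.688 for Prox1, 0.669 for C1ql2, 0.628 for C1ql3 and 0.851 for Stxbp6. Without rat 6, over 462 assignments, p was 0.916 for Prox1, 0.797 for C1ql2, 0.755 for C1ql3 and 0.353 for Stxbp6. Assignments kept within sheets gave exact p of 0.49, 0.585, 0.87 and 0.375 in the same order. In bulk tissue, fewer cells of a type and less RNA per cell cannot be told apart, and a p over the threshold does not show that the groups were equal. Over 11 rats, the lowest limit of the 4 separate 95% intervals was 0.66-fold and the highest was 1.68-fold, both for Prox1. No joint interval over the 4 markers was computed.

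**Figure D2:**
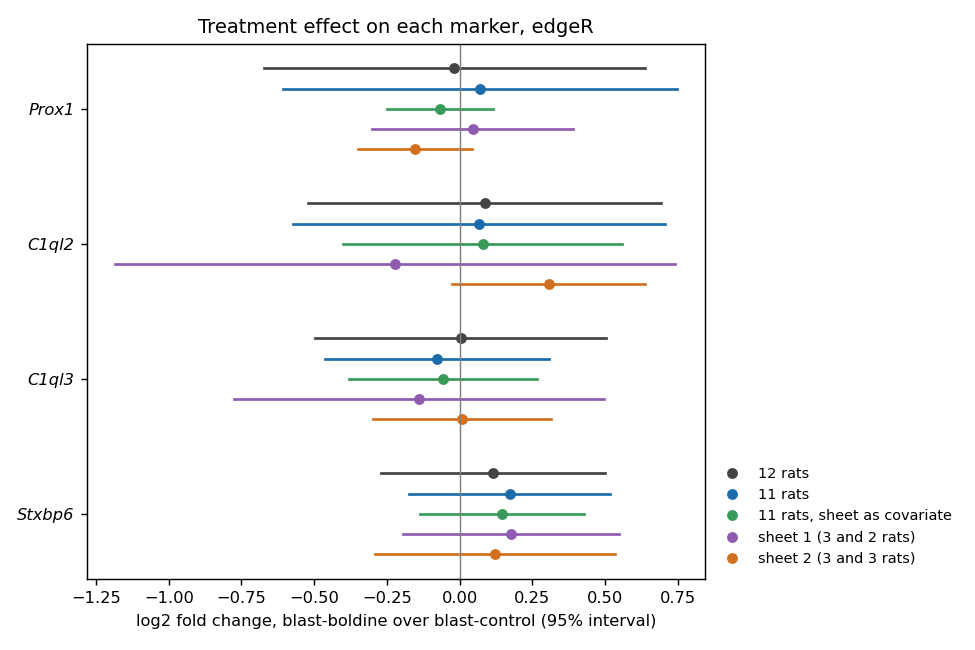
Log2 fold change of blast-boldine over blast-control rats in edgeR with its 95% interval (horizontal lines) for each abundant marker, over 12 rats, over 11 rats without rat 6, over 11 rats with the sheet as covariate, and within each sheet. Every interval crosses 0, and the Prox1 interval is the narrowest once the sheet is in the fit, from -0.25 to 0.12.

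The largest difference in Prox1 was between sheets, not between diets. Without rat 6 its mean was 192.4 ± 20.04 CPM on sheet 1 (SD, n = 5) and 97.3 ± 9.24 on sheet 2 (n = 6), 1.97-fold apart in mean log2 CPM, with no overlap. Non-overlap between sheets was common, at 48.6% of all genes tested, and the sheets were chosen from the data, so that this is a description. C1ql2 went the other way, at 74.3 ± 13.4 CPM on sheet 2 and 49.4 ± 20.1 on sheet 1, 1.58-fold apart in mean log2 CPM, with overlapping ranges. On the same scale C1ql3 was 1.21-fold higher on sheet 2 and Stxbp6 1.19-fold higher on sheet 1, also with overlap. Genes with over 4000 exon bases, such as Prox1 (4129 bases), had a median log2 difference of 0.24 toward sheet 1, and genes with under 1500 bases, such as C1ql2 (953), C1ql3 (768) and Stxbp6 (1329), a median of -0.21. The part of transcript length in these differences was not tested. With the sheet in the fit, the common biological coefficient of variation over all genes fell from 0.315 to 0.155. That of Prox1 fell from 0.366 to 0.105, above that of 77.8% of genes before and 23.5% after. That of C1ql2 went from 0.349 to 0.259, above that of 74.8% of genes before and 93.6% after. Among rats of 1 sheet, C1ql2 therefore varied more than Prox1, from 28.6 to 79.6 CPM on sheet 1.

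Once each sheet was centred on its mean, no pair of markers had a correlation that passed the adjustment over the 6 pairs. All 6 pairwise correlations over the 11 deep libraries had a positive sign, from 0.31 for C1ql3 with Stxbp6 to 0.78 for C1ql2 with C1ql3. For C1ql2 and C1ql3, Pearson's r was 0.78 (exact permutation p within sheets = 0.0223, adjusted over the 6 pairs 0.126) and Spearman's rho was 0.53 (exact permutation p = 0.138, adjusted 0.276). Rat 4 was high and rat 5 low in both genes, and without these rats r was 0.50, so that the relation rested in part on them. Leaving out the same rats, the 2 farthest from the C1ql2 median, took r of C1ql2 with Stxbp6 from 0.48 to 0.87. Rat 7, low in both genes (-0.52 and -0.56 in centred log2 CPM), was kept in that value. In each pair the rats left out were picked on the first-named gene only, so that these values do not rank the pairs. For C1ql2 with C1ql3, r was 0.90 within sheet 1 (5 rats) and 0.41 within sheet 2 (6 rats), and so few rats give a description only. For Prox1 and Stxbp6, r was 0.56 (exact permutation p = 0.0791, adjusted 0.126) and rho 0.75 (exact permutation p = 0.0222, adjusted 0.133), with r of 0.61 without rats 9 and 19. For Prox1 and C1ql3, r was 0.65 (exact permutation p = 0.0494, adjusted 0.126) and rho 0.67 (exact permutation p = 0.0465, adjusted 0.14), with r of 0.49 without rats 9 and 19.

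**Figure D3:**
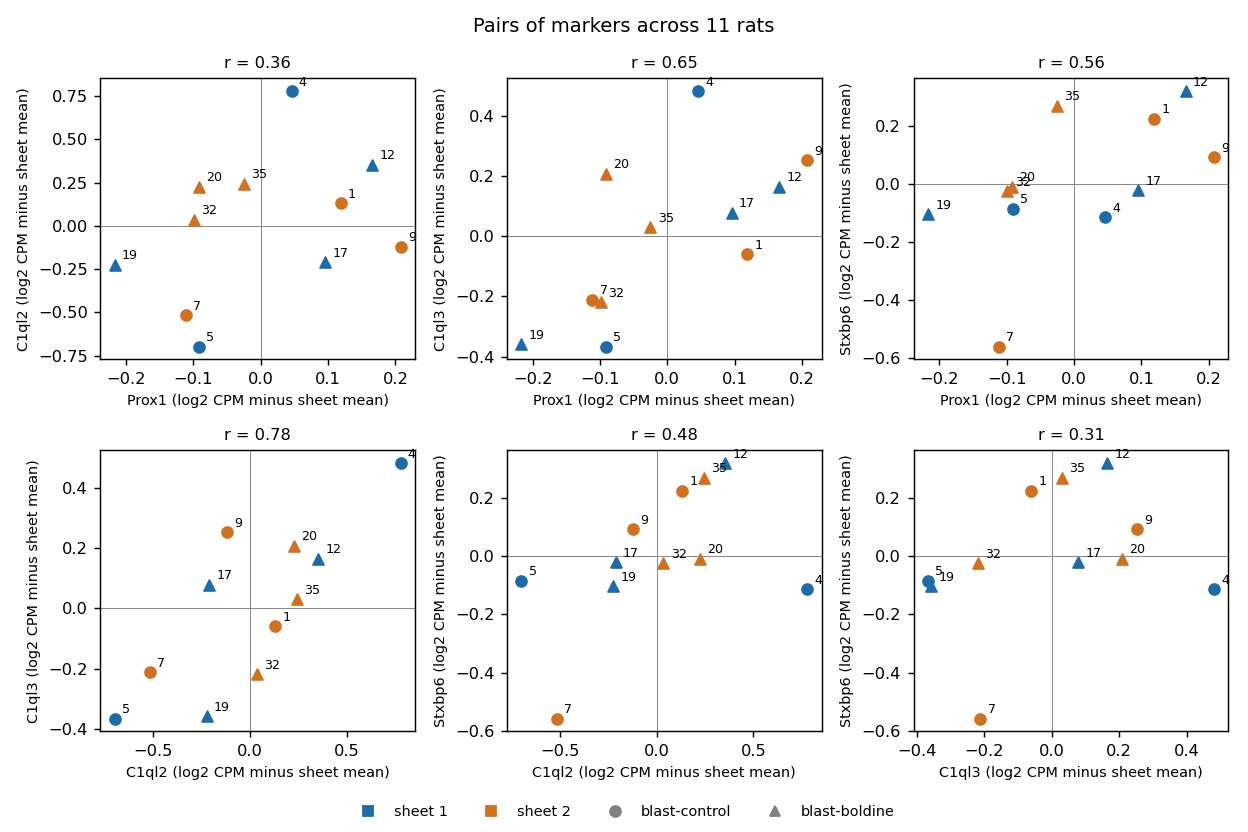
Log2 CPM minus the mean of the rat's sheet for each pair of abundant markers over 11 rats without rat 6, with circles for blast-control, triangles for blast-boldine and colours for sheets. The C1ql2 and C1ql3 panel has the highest r, 0.78, with rats 4 and 5 at its ends, and circles and triangles are mixed in every panel.

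The genes whose pattern over these 11 rats was most like the mean of the 4 markers were Cebpd (r = 0.93), Unc5d (0.92), Gins2 (0.91), Il27ra (0.91) and Qprt (0.91). These are the highest correlations among all other genes tested, on shared libraries, and are given as a description. Among other genes of granule neurons, Rfx3, a ciliary transcription factor, followed the mean most closely with r = 0.86, then the cation channel Trpc6 with 0.77, Plk5 with 0.73 and the calcium buffer Calb1 with 0.68.

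Neighbouring marker lists placed the granule genes beside other cells of the dissection. Of 10 further granule genes, 5 were matched in the counts table, all of these passed the filter, and 0 reached an unadjusted p of 0.05 in edgeR over 11 rats, with a median log2 fold change of 0.02. Plk5 had -0.19 ± 0.20 and Trpc6 0.11 ± 0.15. Of 7 genes of immature granule neurons, 5 were matched and passed, and 0 were called, with Dcx (doublecortin) at 0.12 ± 0.14 and the neurogenic factor Neurod1 at 0.32 ± 0.31. Sox11, a transcription factor of young neurons added after its values were seen, had the other sign at -0.22 ± 0.34. With the sheet as a covariate, where 5.35% of all genes had an unadjusted p under 0.05, Dcx had a log2 fold change of 0.16 (unadjusted p = 0.0449, adjusted p = 0.898, edgeR) and Sox11 one of -0.33 (unadjusted p = 0.0672). The summed CPM of the granule markers ranged from 276 to 471 in the 5 deep blast-controls and from 321.9 to 473.3 in blast-boldine rats.

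Markers of cells outside the granule layer were read in the same libraries, without rat 6 unless stated. All 4 tested CA1 genes were below 0 in log2 fold change, with a median of -0.26 and 0 called in edgeR, and Wfs1, the leading one, had -0.26 ± 0.14. Of 8 cortical genes, 6 were below 0 and 0 were called. Tbr1, a cortical transcription factor, had -0.40 ± 0.19. With the sheet as a covariate, Wfs1 (unadjusted p = 0.0113) and Tbr1 (unadjusted p = 0.00793) reached an unadjusted p under 0.05 in the negative direction, neither after adjustment in edgeR. Choroid plexus genes summed to 14.4 to 1354 CPM in blast-controls and 10.1 to 1447 in blast-boldine rats, so that both groups held rats with high and rats with low levels, and 0 of 7 were called. In the meninges list, Slc6a13 (1.01 ± 0.34, unadjusted p = 0.012) and Slc22a6 (1.05 ± 0.47, unadjusted p = 0.0443) lay above 0, and so did Ccdc153 in the ependyma list (1.02 ± 0.30, unadjusted p = 0.0054), beside 1.40% of all genes at an unadjusted p under 0.05 and all with an adjusted p of 0.9998 in edgeR. Once the sheet entered the fit, where that share was 5.35%, 3 of 7 meninges genes were above 0 at an unadjusted p under 0.05, among them Lum (0.77 ± 0.24, unadjusted p = 0.00633). The lists of CA2 and CA3 neurons, of interneurons of the caudal ganglionic eminence and of oligodendrocytes had 0 called. Some of these interneurons also express Prox1. Without rat 6 the medians were -0.06, -0.10 and -0.10 in this order. With rat 6 they were 0.012, -0.032 and -0.0049, so that the sign of the CA2 and CA3 median rested on the shallow library. Without rat 6 and with the sheet as a covariate they were -0.044, -0.0046 and -0.088. The part of dissection in the granule markers was not tested.

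**Figure D4:**
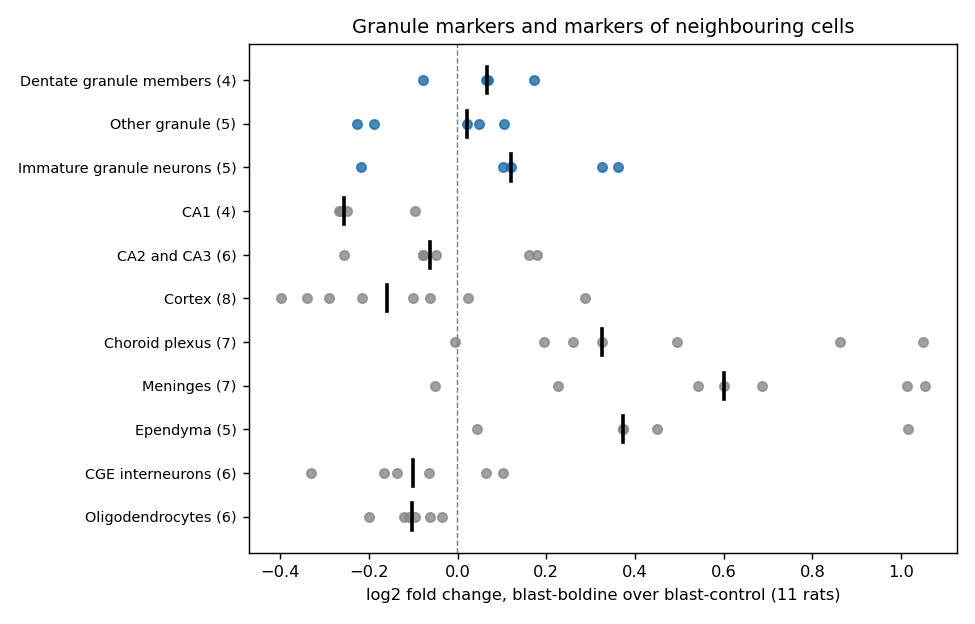
Log2 fold change of blast-boldine over blast-control rats in edgeR without rat 6 for every tested gene of each list (points; number tested in parentheses), with the list's median (black bar) and the median of all genes (dashed line). The granule lists, in blue, have medians of 0.067, 0.02 and 0.12, CA1 lies at -0.26, and the meninges list lies farthest to the right at 0.60.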

How the data were processed

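Total RNA was sequenced from 12 rats, 6 per group, after ribosomal RNA depletion. The deposited values are raw counts per gene: the authors aligned reads to mRatBN7.2 with STAR 2.7.11b and counted exon reads of RefSeq genes by strand with featureCounts (Subread 2.0.1), after removing PCR duplicates. Here, counts of all genes were fitted in edgeR 4.0.16 (quasi-likelihood, R 4.3.3), with TMM normalization, filterByExpr (minimum 10 counts) and Benjamini-Hochberg adjustment, and only the marker rows are given. The filter left 12325 genes over 12 rats and 12529 over 11. CPM use TMM library sizes, log2 CPM adds a prior count of 2, and tests were two-sided with a threshold of 0.05.

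Permutation tests of log2 CPM enumerated 924 assignments of rats (462 without rat 6) or 400 within sheets (200), with smallest possible p of 0.00216 and 0.005, respectively. Within sheets, values were centred on their sheet mean. The edgeR fit was tested on simulated counts with known changes. These were drawn with no difference between sheets and with less spread between rats than the fits without the sheet found. The simulation therefore does not give the power of the fits on the real counts. Alternatives were DESeq2 1.42.0, limma-voom (limma 3.58.1), other size factors and filters, robust empirical Bayes, the sheet as a covariate and leaving out each rat. Fits within sheets, their interaction term, the permutation within sheets without rat 6, DESeq2 without rat 6, and leaving out a further rat beside rat 6 were chosen after the data were seen. The assignment of rats to sheets, the members and the gene lists were chosen with earlier results of these data known. Every fit or permutation that uses the sheet therefore rests on a grouping picked from the data. Apart from the markers, the text names up to 3 genes per list with the smallest p over 11 rats, genes of the further granule list, and the 5 genes most correlated with the markers' mean. Sox11 and Lum were named outside this rule. Some genes of the lists are not reported here by name. Promoters were read from a RefSeq table of GRCr8, which held 6 of the 7 markers, and positions from the mRatBN7.2 counts table. The totals range from 74008 to 40850106, and floors and intervals of single libraries cover counting error only. Figures were drawn with Python 3.11.15 and matplotlib 3.10.9.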

Additional observations from a re-analysis of the deposited data

Results flagged for a closer look

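Of 18 groups of rats checked for a single value far from the others, over 6 genes, 2 had one. Blast-controls were checked with and without rat 6, so that groups share rats, and Lct and Tdo2 had few counts. The rate of about 1 in 20 that chance gives for separate groups of normal values therefore does not apply. Stxbp6 in blast-control rat 7 was 48.4 CPM (924 counts), and the nearest of the other deep blast-controls had 76.1 CPM, a gap of 0.79 of the group's range. Lct in blast-boldine rat 19 was 0.539 CPM, from 7 counts, against 0.23 CPM in the nearest rat, a gap of 0.632 of the range. The cause of either value was not tested.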

How the results depend on the processing

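Over 145 alternative fits of the 4 abundant markers, 0 gave an unadjusted p under 0.05, the smallest adjusted p was 0.807 and the largest log2 fold change in size was 0.31, while 36 had the other sign, as values near 0 do. For Prox1 over 12 rats limma-voom gave 0.022. For C1ql3 DESeq2 gave -0.013, limma-voom -0.023, RLE size factors -0.011, upper-quartile size factors -0.018, the sheet as a covariate -0.033, and the same without rat 6 -0.057. Without rat 6, Prox1 was -0.067 with the sheet in edgeR and -0.065 in DESeq2 and -0.15 within sheet 2, C1ql2 was -0.22 within sheet 1, and C1ql3 was 0.0084 within sheet 2. Leaving out each rat in turn moved Prox1 from -0.17 to 0.11, C1ql2 from -0.071 to 0.21, C1ql3 from -0.086 to 0.10, Stxbp6 from -0.0072 to 0.17 and the markers' median from -0.0086 to 0.12 (0.11 without rat 4). With rat 6 left out too, the ranges were -0.083 to 0.24, -0.11 to 0.18, -0.19 to 0.0064 and 0.05 to 0.22. Without rat 6 the difference in mean log2 CPM was 0.036 for Prox1 and -0.062 for C1ql3 (-0.035 within sheets), against -0.11 and 0.36 with it, and with rat 6 the difference between sheets of C1ql3 was -0.67. Genes of all tested at an unadjusted p under 0.05 numbered 132, and 85 in DESeq2, 254 with no filter, 5 with at least 10 counts in every library, which kept Prox1 as the only marker, 474 with the sheet, 670 with the sheet and without rat 6, and 85 to 214 when each rat was left out, lowest without rats 12 and 17 and highest without rat 5. The cause of these shifts was not tested. Depth limits Lct, Tdo2 and all values of rat 6. No paired analysis was possible because the groups share no replicate numbers.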

Other observations

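Within granule neuron markers, the ratio of Prox1 to C1ql2 in CPM was 2.49 to 6.29 in the 5 deep libraries of sheet 1 and 1.06 to 1.75 in the 6 of sheet 2. This ratio was looked at after the values were known, no test was made of it, and the share of other gene pairs that separate the sheets was not computed.

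Without rat 6, further granule genes also differed between the sheets, where 48.6% of all genes tested had ranges that did not overlap. Calb1, a calcium buffer abundant in mature granule neurons, was 1.67-fold higher in mean log2 CPM on sheet 2 with no overlap (118.5 to 161.2 against 69.1 to 92.3 CPM), Trpc6 was 1.31-fold higher on sheet 1 with no overlap, and Rfx3 differed by 0.03 on the log2 scale.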
